A study of Mus musculus with 30 samples.

Results

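The 42 genes described here are Myc and a set of genes for making ribosomes, most of them known as targets of the MYC protein. They were taken by symbol from the 55471 genes of each count table, on the basis of function. The choice was made with earlier results of these data known. All 42 held enough counts to be tested in both cell types. Bulk RNA was sequenced from haematopoietic stem cells (HSCs) and multipotent progenitors (MPPs), sorted from the bone marrow of C57BL/6 mice that had been given MTP10-HDL or phosphate-buffered saline (PBS). The treatment is a lipoprotein nanoparticle loaded with muramyl tripeptide, a bacterial cell wall fragment that is sensed through Nod2. HSCs were represented by 7 PBS and 6 MTP10-HDL libraries, and MPPs by PBS libraries numbered 2 and 3 and by MTP10-HDL libraries numbered 1, 2 and 3. Each library came from RNA of 4 mice put together, so the error terms and p-values below describe the variation among such pools. For the MPP samples the labels describe 3 doses within 5 days and marrow harvest 1 day after the last dose. The schedule of the HSC samples, and the age and sex of the mice, were not found in the sources used here, and the labels name no altered gene in any group.

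Ribosomes are built in the nucleolus. RNA polymerase I transcribes the ribosomal RNA precursor, small nucleolar ribonucleoproteins (snoRNPs) guide its chemical modification, and many assembly factors cut, fold and export the precursors of the small and the large subunit. MYC is a transcription factor that binds the E-box sequence CACGTG as a dimer with MAX and is known to promote transcription at every step of this process. In blood-forming tissue, quiescent stem cells make little protein, and ribosome production is known to increase as cells enter the cycle and progress along the lineages.

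The E-box letters were looked for in promoter windows from RefSeq (mouse build GRCm38.p6), each spanning 250 bases before to 50 bases after an annotated transcription start. The table held 44 windows for 35 of the 42 genes. CACGTG, which reads the same on both strands, was present in 6 of the 44 windows (13.6%), against 7.2% of all 32851 windows and 7.8% of the 21263 windows of protein-coding genes. The 6 stretches are shown because they hold the sequence that MYC and MAX are known to bind. They are printed on the strand of the gene, with the motif in capitals.

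Nop2: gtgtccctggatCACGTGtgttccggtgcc
Utp20: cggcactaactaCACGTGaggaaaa
Pes1: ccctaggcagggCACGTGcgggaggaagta
Mybbp1a: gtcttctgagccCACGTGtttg
Nle1: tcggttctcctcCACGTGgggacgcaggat
Wdr43: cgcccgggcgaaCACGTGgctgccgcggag

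The Nop2 stretch lies at chr6:125131811-125131840 on the plus strand, and its motif starts 60 bases before the annotated start. The other 5 motifs start within the 50 bases after it. Utp20 (chr10:88826765-88826789) and Nle1 (chr11:82908355-82908384) are on the minus strand. Pes1 (chr11:3963965-3963994), Mybbp1a (chr11:72441355-72441376) and Wdr43 (chr17:71616220-71616249) are on the plus strand.

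A related E-box with 1 base changed, CACGCG, or CGCGTG on the opposite strand, was present in 14 of the 44 windows (31.8%) and in 12 genes. The share was 9.3% of all windows and 12.1% of protein-coding windows. The 44 windows were also richer in G and C, with a median of 59.2% against 52.7% of all windows, and had a median of 21.5 CpG dinucleotides against 7.0. The stretches of 4 genes that are described below are shown, again with the motif in capitals. In the Polr1c stretch the motif is followed directly by its reverse complement, and in the Mybbp1a window a pair of the same kind overlaps.

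Polr1c: ccgtcgctggagCACGCGcgcgtgggaaga
Nolc1: gcaggatgatgaCGCGTGtgggaccggaag
Nop16: ggagactattaaCACGCGgctctgagagcg
Ppan: agagttacgagcCGCGTGgcaccggaagtt

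The Polr1c stretch lies at chr17:46248203-46248232 and that of Nop16 at chr13:54590029-54590058, both on the minus strand. Those of Nolc1 (chr19:46075810-46075839) and Ppan (chr9:20888172-20888201) are on the plus strand. A match is a run of letters and no evidence of binding, and binding was not measured here.

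The HSC libraries held 4064155 to 7879858 counts and the MPP libraries 11252479 to 32769369. The single lowest count of any of the 42 genes in any library was 16 for Nle1 in HSCs. Among HSC libraries, PBS 1 and 4 and MTP10-HDL 2 and 3 detected the fewest genes. Of the others, PBS 2 and 3 and MTP10-HDL 1 and 4 had the highest ribosomal RNA shares. These sets and the remaining libraries are called technical groups below. They were formed here from these values and not taken from the labels, and each held both treatments. In MPPs every MTP10-HDL library was deeper than both PBS libraries, and the ribosomal RNA share was lower in all 3 of them, at 0.759% ± 0.22 (SD, n = 3) against 1.36% ± 0.153 (n = 2) in the PBS libraries. All 13 markers of HSC and progenitor identity, among them Kit, Ly6a, Procr and Slamf1, were tested in both cell types and none was at 0. The kits differed between the cell types, and levels are therefore set side by side within a cell type only.

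The first comparison asked whether the ribosome biogenesis program differed in HSCs of treated mice. No difference passed the test. Myc itself had nearly equal means, 17 of the 42 genes had a log2 fold change (MTP10-HDL over PBS) above 0 and 25 below 0, and the median was -0.017, close to the -0.018 of all 16631 genes tested and below the 0.058 of genes at or above the lowest mean level among the 42. The share above 0 was 40.5%, against 47.7% of all genes and 58.9% of those at or above that level. The number above 0 was 14 to 18 under other scalings and a stricter filter, and 25 with no filter on low counts. The 42 genes took 0.448% ± 0.0644 (SD, n = 7) of the counts in PBS libraries, and 0.459% ± 0.0879 (n = 6) in MTP10-HDL libraries. These are shares of all counts. Mitochondrial genes took 25.4% ± 2.95 with PBS and 23.1% ± 5.23 with MTP10-HDL, and immunoglobulin genes 5.31% ± 6.97 and 1.81% ± 1.63. Their part in the share of the 42 genes was not tested.

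No gene of the 42 passed a false discovery rate of 0.05 in edgeR's quasi-likelihood test, and neither did any of the 16631 genes (0%). At an unadjusted p under 0.05 there were 3 of the 42 (7.14%), against 8.83% of all genes and 10.4% of those at or above the lowest mean level. Of these, Nop16 and Heatr1 were higher (4.36% of all genes were higher at that p) and Ftsj3 was lower (4.47%). There were 0 at that p without PBS 5 or without PBS 7. DESeq2 and limma voom also called 0 of the 42 (of all genes, 0.606% and 0%). The groups overlapped for all 42 genes, where 0.174% of all genes were higher and 0.168% lower without overlap. For 17 of the 42 (40.5%) the 95% interval of the log2 fold change lay wholly between -0.5 and 0.5, as it did for 16.3% of all genes and for 27.8% of those at or above the lowest mean level. The median half-width of the interval was 0.37 for the 42 genes. A gene with an interval of that width needed an estimate beyond 0.37 in either direction for the interval to exclude 0.

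One HSC library stood apart. MTP10-HDL 1 had the lowest value of any HSC library for the mean centred log2 level of the 42 genes, -0.40, with the other MTP10-HDL libraries between -0.045 and 0.18 and PBS libraries between -0.18 and 0.28. The same library had the lowest summed level of S phase genes in HSCs (1760 CPM, which is counts scaled to library size), of mitosis genes (2191 CPM) and of HSC and progenitor identity markers (1846 CPM). It had the highest of monocyte and macrophage markers (3167 CPM), mature neutrophil markers (5578 CPM) and lineage depletion markers (1568 CPM). Their part in its low score was not tested. Without it, 26 of the 42 genes were above 0 and the median was 0.050. Within the technical groups the median log2 difference of the 42 genes was -0.16 in the libraries with the fewest detected genes, -0.012 in those with the most ribosomal RNA and 0.19 in the others, each from 2 or 3 libraries a side.

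The second comparison asked the same of MPPs. There 37 of the 42 genes (88.1%) had a log2 fold change above 0, against 52% of all 15449 genes tested and 62.4% of those at or above the lowest mean level of the 42. The median was 0.22, against 0.019 for all genes and 0.086 at or above that level. The number above 0 was 33 to 37 under every other scaling and filter run. The 42 genes took 0.812% and 0.870% of counts in the PBS libraries and 1.02%, 1.13% and 1.10% in the MTP10-HDL libraries, so the MTP10-HDL libraries were all above both PBS libraries. The exact permutation p was 0.1, the smallest possible with 10 arrangements. These are shares of all counts, and immunoglobulin genes took 12.5% and 6.20% with PBS and 4.26%, 4.24% and 2.76% with MTP10-HDL. The part of that difference in the share of the 42 genes was not tested. In RNA from a sorted pool, a different share of cells that make many ribosomes and a different amount of RNA per cell cannot be told apart.

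No MPP gene passed the threshold in edgeR, among the 42 or among all 15449 (0%). Npm1 alone had an unadjusted p under 0.05 (1 of 42, or 2.38%, against 6.23% of all genes and 6.12% at or above the lowest mean level). Of all genes 2.17% were higher at that p and 4.06% lower. DESeq2 and limma voom also called 0 of the 42 (of all genes, 1.05% and 0%). Levels were higher in all 3 MTP10-HDL libraries than in both PBS libraries for 12 genes (28.6%), against 12% of all genes tested. They were lower in all 3 for 2 genes, Nle1 and Ppan (4.76%, against 12.3%). With 2 libraries against 3 the median half-width of the 95% interval was 0.52, wider than the median difference, and the interval lay wholly between -0.5 and 0.5 for 1 gene of the 42 (2.38%, against 1.58% of all genes and 3.19% at or above the lowest mean level).

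**Figure D1:**
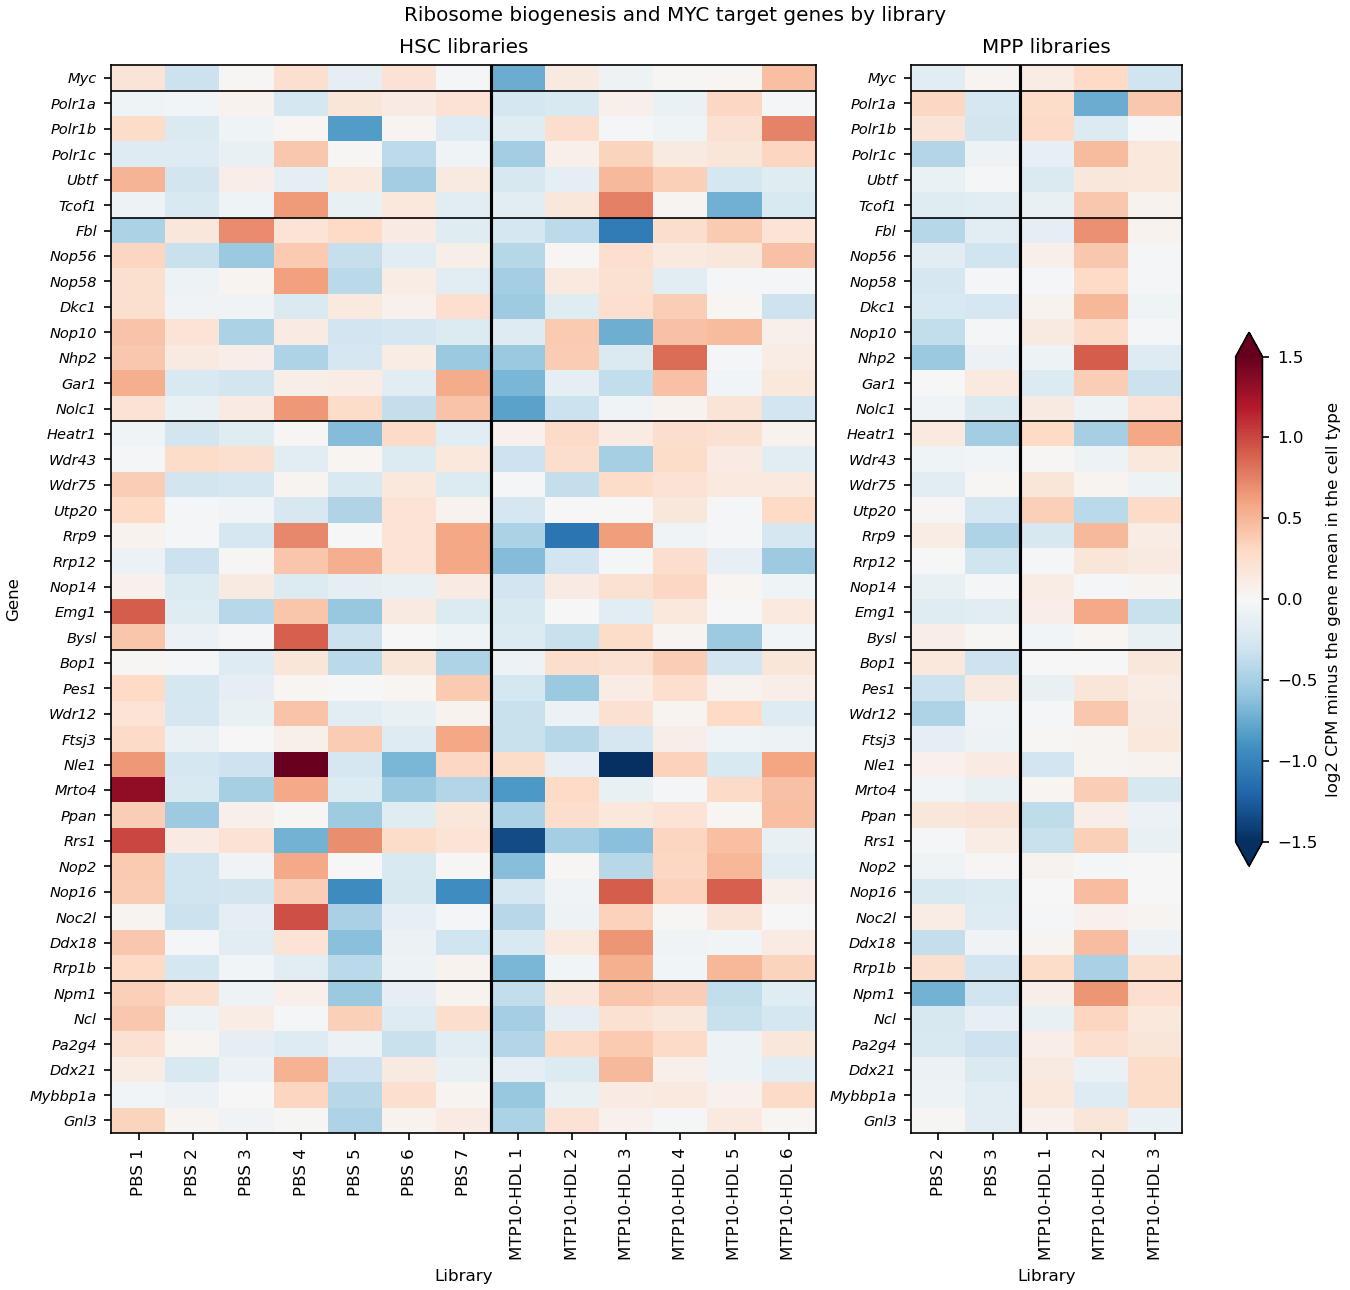
Level of each of the 42 genes (rows, ordered by role) in each library (columns), as log2 CPM minus the gene's mean in that cell type, with HSC libraries on the left and MPP libraries on the right and a vertical line between PBS and MTP10-HDL. Colours beyond 1.5 in either direction are capped. The column of HSC MTP10-HDL 1 is mostly blue (lower), with a mean of -0.40, and the MPP MTP10-HDL columns average 0.015, 0.17 and 0.055 against -0.11 and -0.13 for PBS.

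**Figure D2:**
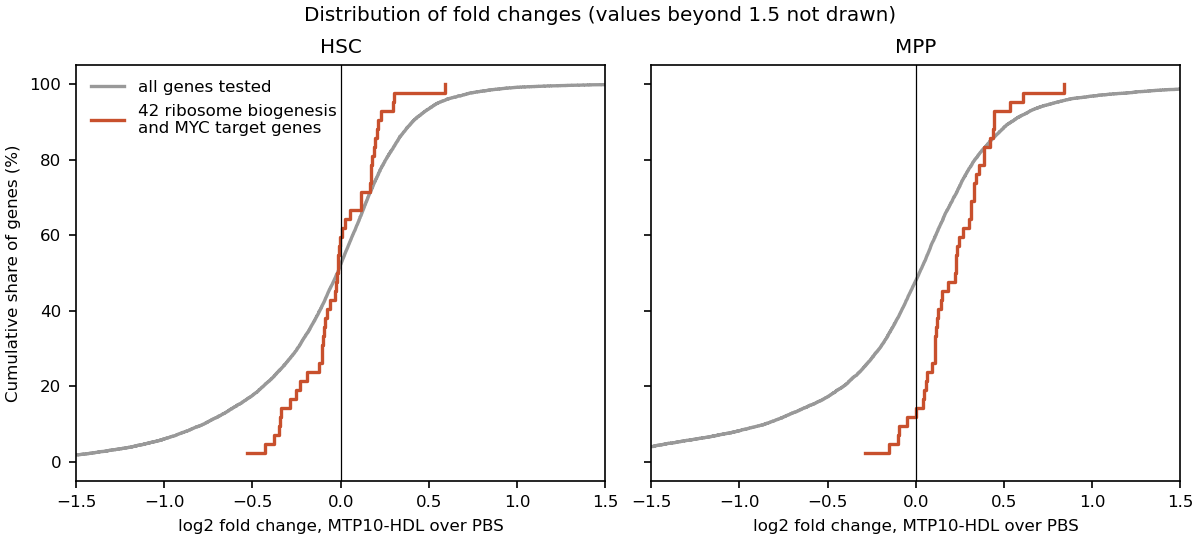
Cumulative share of genes (vertical axis, %) at or below each log2 fold change (horizontal axis, MTP10-HDL over PBS) for the 42 genes and for all genes tested, in HSCs (left) and MPPs (right). The medians nearly coincide in HSCs, at -0.017 and -0.018, and lie at 0.22 and 0.019 in MPPs.

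Myc (ENSMUSG00000022346; GRCm38.p6 chromosome 15, 61985341 to 61990361) encodes the transcription factor that drives this program. Its level in HSCs was lowest at 205, had a median of 260.3 and was highest at 304 CPM with PBS, and the corresponding values with MTP10-HDL were 153, 261 and 352 CPM. The medians nearly coincided and the MTP10-HDL libraries spanned the whole PBS range. The means were 264 ± 37.3 CPM (SD, n = 7) and 259 ± 64.2 CPM (n = 6), a log2 fold change of -0.027 (SE 0.16; edgeR adjusted p = 0.967). In MPPs Myc was at 306 and 351 CPM with PBS and at 367, 418 and 277 CPM with MTP10-HDL. MTP10-HDL 3 lay below both PBS libraries and the others above them. The log2 fold change was 0.11 (SE 0.24; edgeR adjusted p = 0.968), and it was -0.028 without MTP10-HDL 2.

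Of the 5 genes for RNA polymerase I transcription, 3 were above 0 in HSCs and 5 in MPPs. The MPP value of Polr1a, the largest subunit of the polymerase, was only 0.0022 (SE 0.36) and turned negative under DESeq2, RLE and upper quartile scaling. In HSCs Polr1a was lowest of the 5, at -0.060 (SE 0.13). Ubtf, which encodes the factor that keeps ribosomal RNA genes open, had log2 fold changes of 0.0066 in HSCs and 0.11 in MPPs, and Tcof1, whose product treacle works with the polymerase, had -0.0054 and 0.31. The HSC values of Ubtf and Tcof1 were far smaller than their SE (0.18 and 0.21).

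Polr1b, the other large catalytic subunit, had the highest value of this role in HSCs. Its PBS libraries ran from 16.1 through a median of 27.9 to 35.2 CPM, and its MTP10-HDL libraries from 25.6 through 31.5 to 49.0 CPM. The ranges overlapped, with 4 of 6 MTP10-HDL libraries above the PBS median, and the log2 fold change was 0.30 (SE 0.19; edgeR adjusted p = 0.656), and 0.17 without MTP10-HDL 6. Polr1c, a subunit shared by RNA polymerases I and III, had the highest value in MPPs, with 46.0 and 58.9 CPM under PBS and 57.0, 86.8 and 69.7 CPM under MTP10-HDL. MTP10-HDL 1 lay between the PBS libraries. The log2 fold change was 0.44 (SE 0.25; edgeR adjusted p = 0.854). It was 0.27 without MTP10-HDL 2 and 0.26 without PBS 2.

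The 8 snoRNP genes were the role with the highest median in MPPs, 0.36, with 7 of 8 above 0 and 5 of 8 higher without overlap between the groups. Of all MPP genes tested, 52% were above 0 and 12% were higher without overlap. In HSCs their median was -0.11, with 3 of 8 above 0. Box C/D snoRNPs methylate ribosomal RNA. Fibrillarin (Fbl; chromosome 7, 28168893 to 28179269), their methyltransferase, was at 68.4 and 81.5 CPM in PBS MPPs and at 83.1, 147 and 95.1 CPM in MTP10-HDL MPPs. The lowest MTP10-HDL library exceeded the highest PBS library by a narrow margin, and MTP10-HDL 2 stood well above the others. The log2 fold change was 0.53 (SE 0.29; edgeR adjusted p = 0.834) and 0.25 without that library. In HSCs the value for Fbl was -0.23 (SE 0.28).

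Nop56, a core protein of the same particles, was at 252 and 229 CPM in PBS MPPs and at 295, 372 and 275 CPM in MTP10-HDL MPPs. The groups were apart, with a log2 fold change of 0.39 (SE 0.22; edgeR adjusted p = 0.854) and of 0.24 without MTP10-HDL 2. Its partner Nop58 was less separated, with PBS libraries at 310.4 and 363.8 CPM and MTP10-HDL libraries at 363.8, 455.0 and 364.3 CPM, and 2 of the latter sat almost at the level of PBS 3. Box H/ACA snoRNPs convert uridine to pseudouridine. Dkc1, their pseudouridine synthase (chromosome X, 75095854 to 75109776), was at 235 and 231 CPM with PBS and at 285, 388 and 264 CPM with MTP10-HDL, again without overlap, for a log2 fold change of 0.42 (SE 0.24; edgeR adjusted p = 0.852). It was 0.23 without MTP10-HDL 2.

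The smaller proteins of the box H/ACA particle did not share a direction in MPPs. Nop10 had a log2 fold change of 0.33 and no overlap, Nhp2 one of 0.61 (SE 0.37) that dropped to 0.17 without MTP10-HDL 2, and Gar1 one of -0.099 (SE 0.26) that ranged from -0.34 to 0.032 when each library was left out. Nhp2 was at 194 CPM in MTP10-HDL 2, against 97.7 and 90.02 CPM in the other MTP10-HDL libraries. Nolc1, a chaperone of both particle types, had the lowest value of this role in HSCs, with PBS libraries from 56.3 through 84.4 to 114 CPM and MTP10-HDL libraries from 41.5 through 64.5 to 82.7 CPM. All 6 MTP10-HDL libraries were below the PBS median although the ranges overlapped. The log2 fold change was -0.38 (SE 0.18; edgeR adjusted p = 0.562), and -0.62, -0.39 and -0.16 within the technical groups. In MPPs Nolc1 was at 0.23 (SE 0.20).

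Among the 9 factors of small subunit processing, 8 of 9 were above 0 in MPPs with a median of 0.23, and 4 of 9 in HSCs with a median of -0.077. None of them separated the MPP groups. Heatr1, which joins RNA polymerase I transcription to early precursor processing, was among the genes of smallest p in HSCs. Its PBS libraries ran from 77.0 through 108 to 148 CPM, and its MTP10-HDL libraries from 126 through 138 to 148 CPM. All 6 MTP10-HDL libraries were above the PBS median, and PBS 6 was just above all of them. The means were 111 ± 21.9 CPM (SD, n = 7) and 137 ± 9.50 CPM (n = 6), with a log2 fold change of 0.30 (SE 0.14; edgeR adjusted p = 0.554) and 0.23, 0.39 and 0.32 within the technical groups.

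Heatr1 was also the highest of this role in MPPs at 0.34 (SE 0.35), but its libraries were scattered, with 98.0 and 61.9 CPM under PBS and 109, 62.9 and 132 CPM under MTP10-HDL. MTP10-HDL 2 was the low one of the treated. The value was 0.71 without PBS 2, 0.59 without MTP10-HDL 2, 0.11 without MTP10-HDL 3 and 0.052 without PBS 3. MTP10-HDL 2 was lowest of all 5 for Utp20, a scaffold of the small subunit processome, at 58.7 CPM. It was also lowest for Polr1a at 48.9 CPM and Rrp1b at 39.9 CPM. The order of the MPP libraries therefore differed from gene to gene, since MTP10-HDL 2 was highest of all 5 for Npm1, Fbl, Dkc1 and Nhp2.

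Rrp12, which helps to export both subunits, had the lowest HSC value of this role. PBS libraries ran from 17.1 through 24.8 to 32.4 CPM and MTP10-HDL libraries from 13.6 through 18.6 to 25.7 CPM. The ranges overlapped, with 1 of 6 MTP10-HDL libraries above the PBS median, for a log2 fold change of -0.43 (SE 0.21; edgeR adjusted p = 0.564). The other members in HSCs lay between -0.35 for Rrp9 and 0.12 for Wdr75. In MPPs Bysl, which encodes bystin, was the only gene below 0, at -0.097 (SE 0.21), and Wdr43, Wdr75, Utp20, Rrp9, Rrp12, Nop14 and Emg1 lay between 0.089 and 0.33.

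Large subunit assembly factors differed among themselves in sign. In MPPs 10 of 13 were above 0, with a median of 0.11, and the number was 9 under upper quartile scaling and 7 when only genes with a mean of at least 10 CPM were scaled and tested. In HSCs 5 of 13 were above 0, with a median of -0.030. Wdr12 belongs to a complex with Pes1 and Bop1 that is needed to mature the large subunit RNA. It was at 81.4 and 108 CPM in PBS MPPs and at 111, 149 and 124 CPM in MTP10-HDL MPPs, without overlap, for a log2 fold change of 0.44 (SE 0.23; edgeR adjusted p = 0.830). It was 0.23 without PBS 2. Its partners were at 0.14 (Pes1, SE 0.22) and 0.11 (Bop1, SE 0.22), and both of them overlapped between the groups. In HSCs Wdr12 was at -0.015, Pes1 at -0.089 and Bop1 at 0.21.

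Nop16 (ENSMUSG00000025869; chromosome 13, 54584191 to 54590097), a nucleolar protein of large subunit precursors, was among the genes of smallest p in both cell types and had the highest HSC value of the 42. In HSCs its PBS libraries ran from 14.6 through 23.3 to 37.0 CPM and its MTP10-HDL libraries from 23.9 through 33.1 to 53.7 CPM. All 6 MTP10-HDL libraries lay above the PBS median, and PBS 1 and 4 lay above 4 of the 6. The means were 24.8 ± 9.14 CPM (SD, n = 7) and 37.4 ± 13.1 CPM (n = 6), and the log2 fold change was 0.59 (SE 0.26; edgeR adjusted p = 0.548). It was 0.058, 0.34 and 1.19 within the technical groups and 0.37 without PBS 5 and 7, the libraries of lowest depth, which had the lowest Nop16 levels at 14.6 and 14.8 CPM. In MPPs Nop16 was at 48.9 and 49.8 CPM with PBS and at 57.3, 79.1 and 57.1 CPM with MTP10-HDL, without overlap, a log2 fold change of 0.39 (SE 0.23; edgeR adjusted p = 0.866) and of 0.21 without MTP10-HDL 2.

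Ftsj3, a methyltransferase of large subunit precursors, had opposite signs in the cell types. HSC libraries ran from 62.9 through 75.9 to 107 CPM with PBS and from 53.5 through 64.1 to 77.1 CPM with MTP10-HDL. The groups overlapped, with 1 of 6 MTP10-HDL libraries above the PBS median, and the log2 fold change was -0.34 (SE 0.15; edgeR adjusted p = 0.543). In MPPs it was at 129 and 135 CPM with PBS and at 144, 147 and 159 CPM with MTP10-HDL, apart by a small step of 0.18 (SE 0.19). Rrs1, needed for assembly of the large subunit, had the lowest HSC value of the 42, -0.53 (SE 0.31; edgeR adjusted p = 0.625), on counts of only 29 to 164 per library. Its PBS libraries ran from 7.91 through 15.3 to 26.6 CPM and its MTP10-HDL libraries from 4.98 through 10.6 to 17.97 CPM, so that most of the ranges was shared.

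Ppan, whose stretch with the related E-box is shown above, was the only gene of the 42 above 0 in HSCs (0.19, SE 0.19) and below 0 in MPPs (-0.29, SE 0.21). Its MPP levels were 85.7 and 87.4 CPM with PBS and 58.8, 81.8 and 71.8 CPM with MTP10-HDL, and the difference was -0.18 without MTP10-HDL 1. Nle1, needed for a late remodelling step of the large subunit, was also lower in all 3 MTP10-HDL libraries, from 18.9 to 23.8 CPM against 24.2 and 25.0 CPM, a log2 fold change of -0.15 (SE 0.23). Mrto4, Nop2, Noc2l, Ddx18 and Rrp1b ranged from 0.039 to 0.36 in MPPs and from -0.11 to 0.23 in HSCs.

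The multifunctional nucleolar proteins included the gene with the highest MPP value. All 6 were above 0 in MPPs, with a median of 0.29, and 3 of them were higher without overlap (12% of all MPP genes were). In HSCs 2 of 6 were above 0, with a median of -0.013, and 1 of 6 was above 0 under upper quartile scaling. Npm1 (ENSMUSG00000057113; chromosome 11, 33152498 to 33164142) encodes nucleophosmin, an abundant histone and ribosome chaperone. In MPPs it was at 1234 and 1638 CPM with PBS and at 2148, 3179 and 2398 CPM with MTP10-HDL. Every MTP10-HDL library was above both PBS libraries and MTP10-HDL 2 was the highest. The means were 1436 ± 286 CPM (SD, n = 2) and 2575 ± 538 CPM (n = 3). The log2 fold change was 0.84 (SE 0.29, 95% interval 0.18 to 1.51; edgeR unadjusted p = 0.0195, adjusted p = 0.717), and it ranged from 0.64 to 1.06 when each library was left out. Processed copies of Npm1 occur in the mouse genome, and how reads with several matches were counted is not given in the sources used here.

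In HSCs Npm1 did not separate. Its PBS libraries ran from 242 through 369 to 456 CPM and its MTP10-HDL libraries from 276 through 357 to 476 CPM, and the log2 fold change was 0.026 (SE 0.17; edgeR adjusted p = 0.971). Pa2g4, a growth-regulated factor that binds ribosomes, was at 369.6 and 350.0 CPM in PBS MPPs and at 465, 516 and 489 CPM in MTP10-HDL MPPs. The gap between the groups was larger than the spread within either. Its log2 fold change was 0.45 (SE 0.20; edgeR adjusted p = 0.806) and ranged only from 0.41 to 0.48 when each library was left out. In HSCs Pa2g4 was at 0.21 (SE 0.14), with 5 of 6 MTP10-HDL libraries above the PBS median.

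Ncl encodes nucleolin, which binds ribosomal RNA precursors. In HSCs its PBS libraries ran from 836 through 1028 to 1265 CPM and its MTP10-HDL libraries from 669.5 through 831 to 1121 CPM. The ranges overlapped, with 2 of 6 MTP10-HDL libraries above the PBS median, and the log2 fold change was -0.25 (SE 0.15; edgeR adjusted p = 0.623). In MPPs it was at 1945 and 2113 CPM with PBS and at 2126, 2886 and 2559 CPM with MTP10-HDL. The lowest MTP10-HDL library just exceeded PBS 3, and the log2 fold change was 0.31 (SE 0.25; edgeR adjusted p = 0.889). The helicase gene Ddx21, Mybbp1a, and Gnl3, which encodes nucleostemin, were at 0.27, 0.22 and 0.12 in MPPs and between -0.019 and -0.011 in HSCs.

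**Figure D3:**
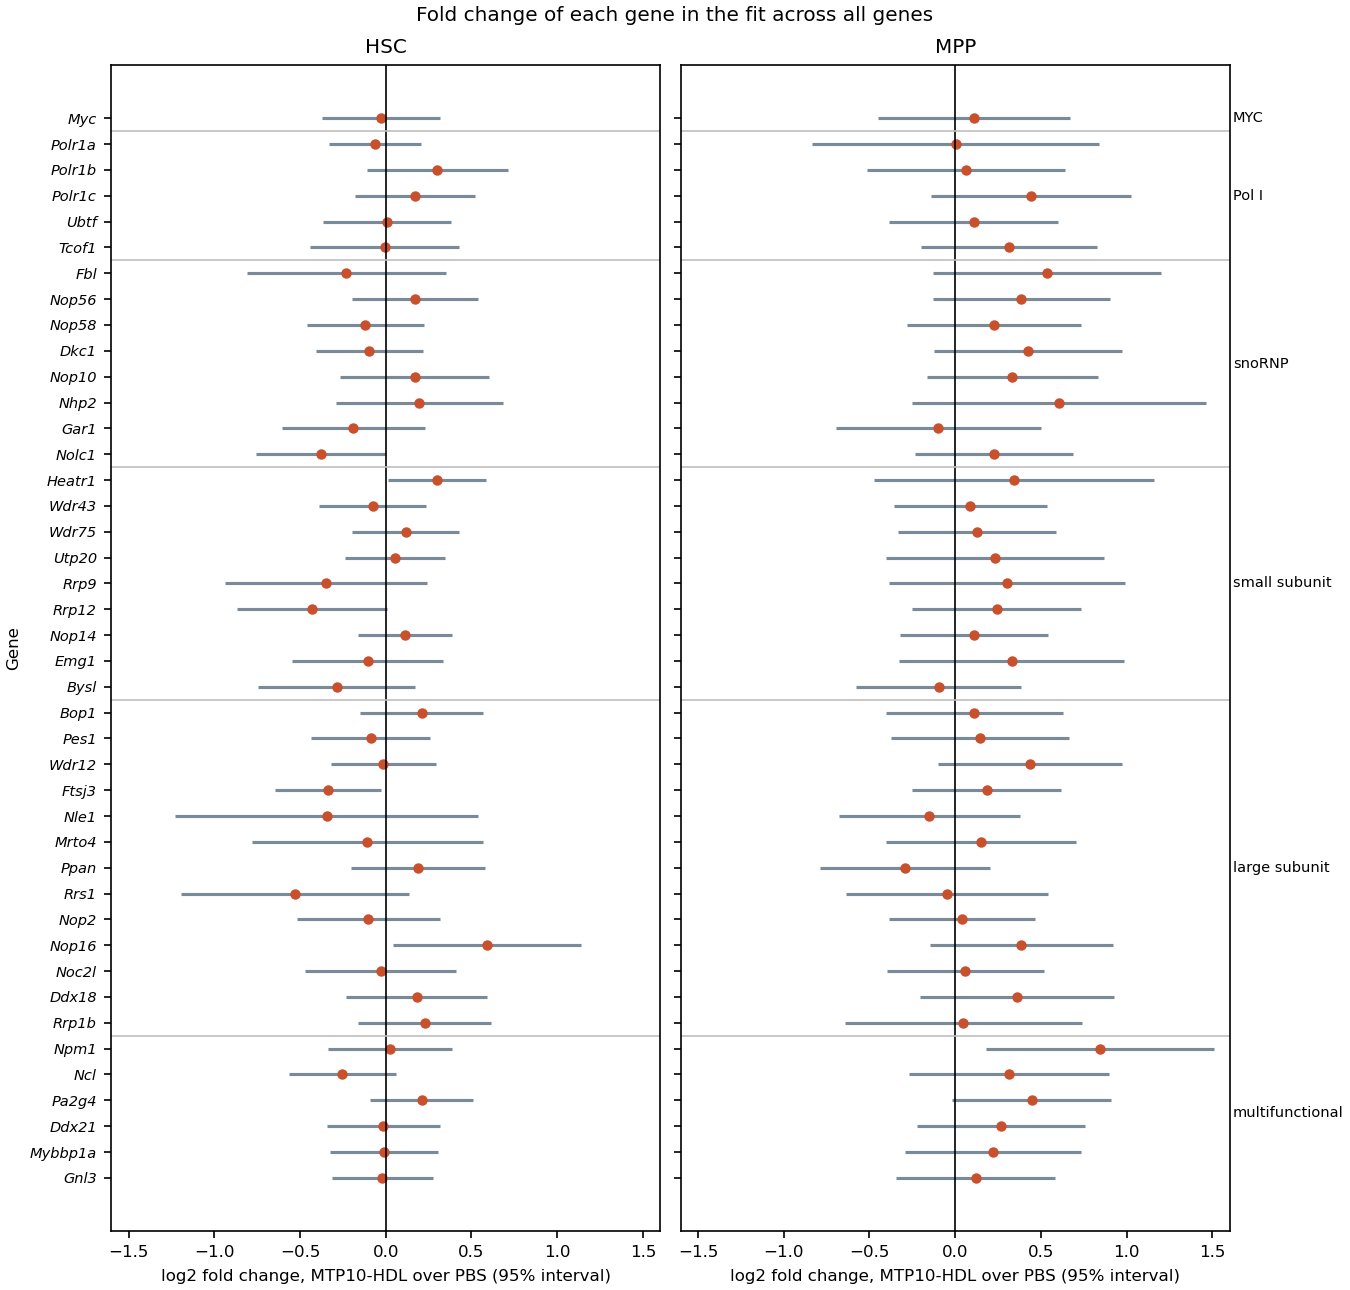
Log2 fold change of each gene (points, MTP10-HDL over PBS) with its 95% interval (bars) from the edgeR fit across all genes, in HSCs (left) and MPPs (right), ordered by role. MPP points lie to the right of 0 for 37 of 42 genes, with a median half-width of the bars of 0.52 against 0.37 in HSCs, and the bar of Npm1 is the only bar in MPPs that does not cross 0.

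**Figure D4:**
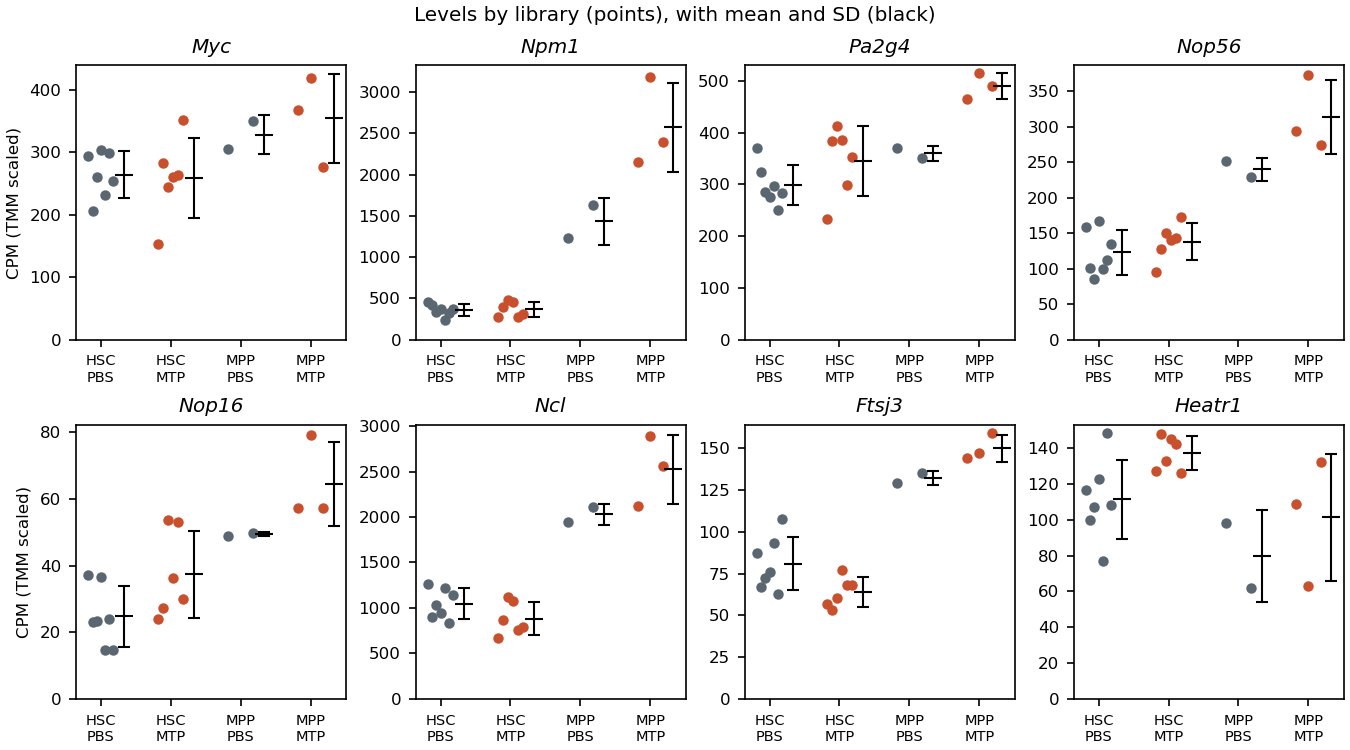
Levels of 8 genes by library (points, CPM after TMM scaling, axes from 0), with the mean and SD of each group in black. MTP10-HDL is abbreviated to MTP on the horizontal axis, and HSC and MPP levels come from different kits. Npm1, Pa2g4, Nop56, Nop16, Ncl and Ftsj3 separate the groups in MPPs and overlap in HSCs, and Myc and Heatr1 overlap in both.

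Genes of the same pathway outside the 42 were counted in the same way, and their counts are to be read against the MPP background of 62.4% above 0 among genes at or above the lowest mean level of the 42 and 6.23% of all genes at an unadjusted p under 0.05. Among other large subunit assembly factors 39 of 43 were above 0 (median 0.26), with 1 at an unadjusted p under 0.05 (Rpf2, log2 fold change 0.68). Among other small subunit processome genes 29 of 35 were above 0 (median 0.21), with Utp14a (0.49) and Pno1 (0.55) at that p. Of the remaining snoRNP assembly and modification genes 13 of 15 were above 0, and of the other polymerase I subunits and initiation factors 7 of 11, with medians of 0.20 and 0.21 and 0 at that p. The share of the polymerase I list was near the first of these, and the share of no list at that p exceeded the second. No gene of these lists passed the false discovery rate in edgeR in either cell type.

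The HSC counts for the same lists were 20 of 43, 25 of 35, 10 of 15 and 7 of 11 above 0, with medians of -0.013, 0.095, 0.092 and 0.043, against 58.9% of genes above 0 at or above the lowest mean level. Nob1 (0.55) and Tbl3 (0.64), of the small subunit processome, were higher at an unadjusted p under 0.05. Nip7 (0.50), of the large subunit list, was higher at that p, and Nol8 (-0.36) and Ddx10 (-0.45) were lower.

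MYC targets that work outside the nucleolus were counted separately. In MPPs 21 of 25 were above 0 (median 0.32), with the mitochondrial chaperonins Hspe1 (0.85) and Hspd1 (0.60) and the cyclin-dependent kinase Cdk4 (0.57) at an unadjusted p under 0.05. In HSCs 14 of 25 were above 0 (median 0.052), against 58.9% of genes at or above the lowest mean level. The transferrin receptor Tfrc was lower there, with 143 ± 37.4 CPM (SD, n = 7) and 86.1 ± 19.4 CPM (n = 6), a log2 fold change of -0.73 (SE 0.19; edgeR adjusted p = 0.302). Lactate dehydrogenase Ldha was higher, with 307 ± 84.2 CPM and 487 ± 114 CPM, a log2 fold change of 0.67 (SE 0.19; edgeR adjusted p = 0.336). Erythroblast markers were above 0 for 0 of 11 in HSCs (median -1.19), and their part in the Tfrc value was not tested. Of the 11 genes of the MYC and MAX network, 5 were above 0 in MPPs (median -0.045), with Max at 0.32 and Mycn at -0.41, and 8 in HSCs (median 0.065).

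Other gene groups moved with the MPP values, and their part in the result was not tested. All 21 S phase genes were above 0, 9 of them at an unadjusted p under 0.05 (2.17% of all MPP genes were higher at that p). Their summed level was 3479 to 3647 CPM with PBS and 4958 to 5141 CPM with MTP10-HDL. All 15 mitosis genes were above 0, with sums of 2573 to 2587 CPM and 2973 to 3831 CPM. Cytosolic ribosomal protein genes were above 0 for 35 of 36, with sums of 24216 and 38432 CPM in PBS 2 and 3 and of 32253, 60504 and 32103 CPM in MTP10-HDL 1, 2 and 3, so that PBS 3 lay above 2 of the MTP10-HDL libraries.

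Other lists had mostly negative log2 fold changes in MPPs, though the summed levels of the groups overlapped for all of those below except erythroblast markers. Immediate early genes, which are induced within minutes by stress or handling, were above 0 for 0 of 14 tested (median -1.99), and their sums were 384 and 3078 CPM with PBS against 259 to 857 CPM with MTP10-HDL. Of the HSC and progenitor identity markers 3 of 13 were above 0 (median -0.44), with Procr at -0.88 and Cd48 at 0.90. Gene by gene, 8 of the 13 were lower without overlap and 2 were higher, against 12.3% and 12% of all MPP genes. Their sums were 3550 and 3818 CPM with PBS and 3434 to 3561 CPM with MTP10-HDL. Plasma cell markers were above 0 for 0 of 5, with sums of 3555 to 6983 CPM against 1237 to 3615 CPM, and erythroblast markers for 1 of 11, with sums of 78.0 to 114 CPM against 21.9 to 45.1 CPM. No marker of these lists was at 0 in every MPP library.

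In HSCs the S phase genes were above 0 for 18 of 20 tested (median 0.26), while the 42 genes had a median of -0.017. Of the S phase genes 5 were higher at an unadjusted p under 0.05, as were 4.36% of all HSC genes. Their summed levels overlapped between the groups, from 1826 to 2513 CPM with PBS and from 1760 to 2806 CPM with MTP10-HDL. Ribosomal protein genes were above 0 for 25 of 35 tested (median 0.14). Immediate early genes were above 0 for 1 of 15 (median -1.42), erythroblast markers for 0 of 11 (median -1.19) and B cell markers for 0 of 9 tested (median -1.56), whereas mature neutrophil markers were above 0 for 11 of 11 (median 0.88). The part of these groups in the HSC values of the 42 genes was not tested.

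**Figure D5:**
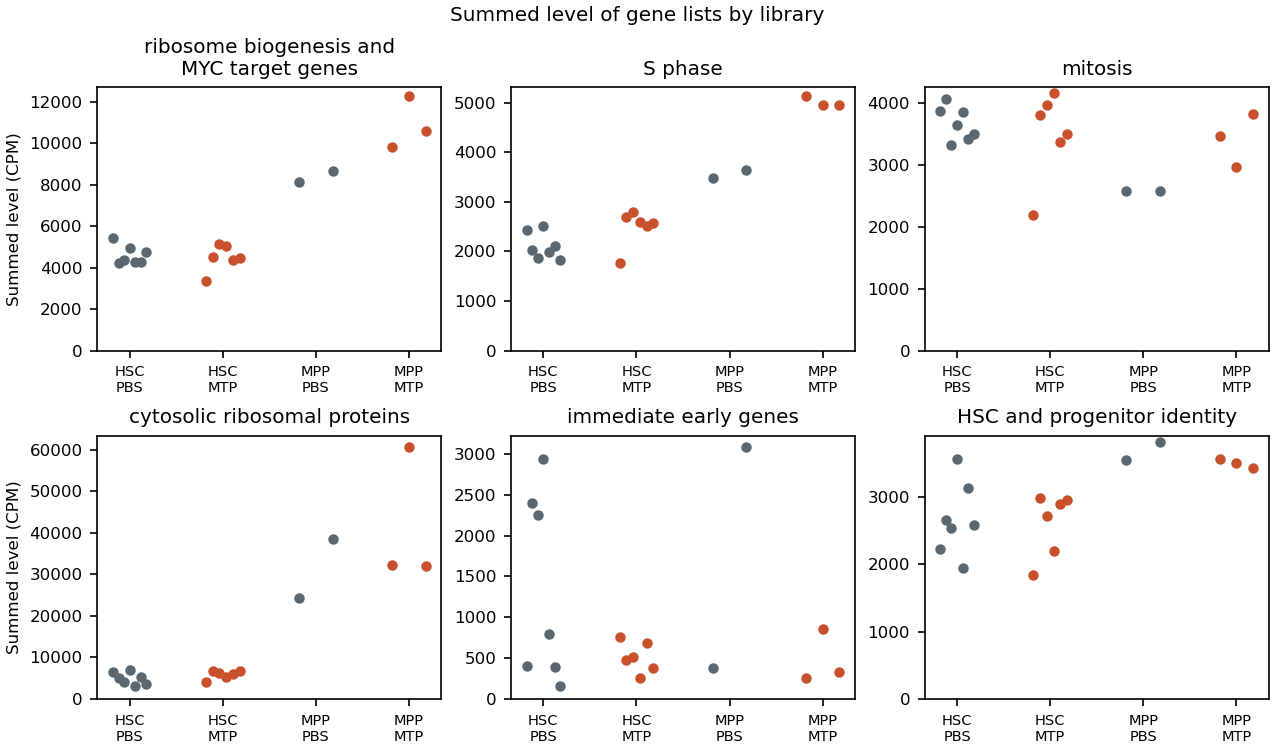
Summed level of 6 gene lists in each library (points, CPM, axes from 0), by cell type and treatment, with MTP10-HDL abbreviated to MTP on the horizontal axis. The MTP10-HDL libraries of MPPs lie above both PBS libraries for the 42 genes, S phase and mitosis, and the groups overlap for ribosomal proteins, immediate early genes and identity markers.

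A joint fit of all 18 libraries tested the difference in response between the cell types. The difference of log2 fold changes was above 0, that is, higher in MPPs, for 37 of the 42 genes, against 55.8% of 24470 genes tested, with a median of 0.23 against 0.089 for all genes. None of the 42 passed the false discovery rate (0.00409% of all genes did). Npm1 was the only gene of the 42 at an unadjusted p under 0.05 (3.86% of all genes), with a difference of 0.84 (SE 0.34; edgeR adjusted p = 1), and limma voom gave 6 at that p and called 0. With limma voom 35 of the 42 were above 0, and the medians were 0.24 for the 42 and -0.12 for all genes. No share among genes of similar level was computed for the joint fit. Cell type and library kit cannot be told apart in the difference of response. Gene by gene, 16 of the 42 were above 0 in both cell types (38.1%, against 34.1% of 13593 genes tested in both). Of the 42, 4 were below 0 in both, against 3723 of the 13593. Above 0 in MPPs only were 21 of the 42, against 2542 of the 13593. Ppan alone was above 0 in HSCs only, against 2686 of the 13593.

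The fold changes were also set beside the promoter motifs. The 6 genes with CACGTG had a median log2 fold change of 0.12 in MPPs, with 5 above 0, against 0.23 for the 29 windowed genes without it, and of -0.083 against -0.014 in HSCs. For the 12 genes with the related E-box the MPP median was 0.22 against 0.18 without it, and the HSC median -0.0022 against -0.060. These are descriptions of few genes, with no test.

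Counting limits apply to some of these values. RefSeq places 20 small nucleolar RNA genes within the span of 7 of the 42 genes, among them Nop56, Nop58, Ncl and Gnl3. A further gene shares part of its span with 14 of the 42, and for 11 this is a protein-coding gene, such as Idh3b at Nop56, Mpp1 at Dkc1, Rmnd5b at Nhp2, Carf at Wdr12 and Ddx42 at Ftsj3. The strand setting of the authors' counting is not given in the sources used here, so reads of such partners cannot be told apart with certainty.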

How the data were processed

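RNA of sorted HSCs (13 libraries) and MPPs (5 libraries) was measured as read counts per Ensembl gene. The authors deposited raw whole-number counts for 55471 genes in 1 table per cell type. The submitters' processing notes list CASAVA 1.8.2 and STAR 2.5.2b for the HSC samples, STAR 2.7.2a, DESeq2 1.24 and R 3.6.1 for the MPP samples, and build mm10. Per the labels' protocols, HSC libraries came from amplified complementary DNA, and MPP libraries were poly-A selected with insect carrier RNA and a directional kit. Neither the counting tool nor its annotation is given in the sources used here. The 12 ATAC samples were not analysed here. HSC PBS columns are numbered 1 to 7 and the labels' samples 1 to 6 and 8, so these columns entered as the HSC PBS group and keep the column numbers here.

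Separate fits were made for HSCs and MPPs with edgeR 4.0.16 (R 4.3.3), using TMM scaling, filterByExpr with default settings, the quasi-likelihood F test and Benjamini-Hochberg adjustment over all genes tested, at a false discovery rate of 0.05. CPM are counts scaled to the TMM-adjusted library size, and centred levels use a prior count of 2. Groups came from the labels. A joint fit tested the difference between cell types. The fit was tested on simulated data. Alternatives used DESeq2 1.42.0, limma 3.58.1, other scalings and filters, a replicate block and libraries left out. Gene positions and promoter windows came from RefSeq (GRCm38.p6) by symbol, for 42 and 35 of the 42 genes.

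By rule, values per library are given for Myc and the 8 genes of smallest p in each cell type, the extremes of each role may be named, and up to 3 genes of smallest p per pathway list. Nop58, Nop10, Utp20, Rrp1b, Nle1 and other genes outside that rule were named after their values were seen. The 42 genes and all lists were chosen with earlier results of these data known.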

Additional observations from a re-analysis of the deposited data

Results flagged for a closer look

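A value was singled out where the highest or lowest library of a group stood apart from the rest by Dixon's 95% criterion, which chance meets in about 1 of 20 groups. Of 84 group values of the 42 genes 6 met it, all in HSCs, where the groups are large enough for it. In PBS 4 the level was 25.3 CPM for Nle1 (next highest PBS library 13.5 CPM), 132 CPM for Noc2l (next 69.8 CPM) and 119 CPM for Tcof1 (next 84.8 CPM). In MTP10-HDL 3 it was 41.6 CPM for Ddx18 (next 28.8 CPM) and 203 CPM for Ddx21 (next 153 CPM). Polr1c was lowest in MTP10-HDL 1, at 27.8 CPM (next lowest 42.1 CPM). Of 12 group values of library content 1 met it, an immunoglobulin share of 19.8% of counts in HSC PBS 2 (next 7.83%). No cause was tested for any of these values.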

How the results depend on the processing

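Under every alternative run, 0 of the 42 genes passed the false discovery rate in either cell type. The median log2 fold change over all HSC genes was -0.23 with DESeq2 and -0.15 with no filter on low counts, against -0.018 as reported, and that of the 42 genes -0.023 and 0.041. The MPP median over all genes was -0.051 with DESeq2. Counts of all HSC genes called were 104 with DESeq2, 44 with no filter and 0 to 1 when each library was left out (1 without MTP10-HDL 4). In MPPs they were 163, 345 and 0 to 17 (17 without PBS 3). The HSC number at an unadjusted p under 0.05 (3) was 5 with RLE scaling, 0 without PBS 5 and 7 together (an alternative added after seeing the data) and 0 to 4 when each library was left out, 0 without PBS 5 or PBS 7 and 1 without PBS 3 or MTP10-HDL 2, 3 or 5. The MPP number (1) was 2 with DESeq2, 2 with limma voom, 3 with no filter and 0 to 3 when each library was left out, 0 without PBS 2 and 3 without MTP10-HDL 2. HSC genes above 0 numbered 14 to 25 across other settings and 15 to 26 when each library was left out, and MPP genes 33 to 37 in both. The MPP median of the 42 genes was 0.16 among genes of at least 10 CPM, and 0.17 to 0.25 when each library was left out. Values near 0 changed sign. Myc in HSCs was 0.031 with no filter and -0.12 to 0.091 when each library was left out, and in MPPs -0.028 to 0.26. Polr1a in HSCs was 0.0086 with no filter and 0.0076 without PBS 5 and 7. Polr1a in MPPs was -0.0029 with DESeq2, -0.0053 with RLE, -0.041 with upper quartile scaling, -0.069 with voom, -0.056 at 10 CPM or more, -0.015 without mitochondrial, ribosomal and immunoglobulin RNA, -0.044 with thinned counts and -0.25 to 0.31 when each library was left out. Gar1 in MPPs was -0.34 to 0.032. Whether replicate numbers pair the samples could not be decided. Same-numbered libraries correlated at -0.19 to 0.19 in HSCs and at -0.17 and -0.029 in MPPs. In either cell type 0 MTP10-HDL libraries correlated best with their own number. The HSC PBS columns are not matched to the labels' numbers. With 2 PBS libraries in MPPs, their deviations from the group mean mirror each other. With the numbers as a replicate block, 0 HSC genes and 0 MPP genes of the 42 were at an unadjusted p under 0.05, 59 MPP genes were called and Polr1a in MPPs was -0.20. The cause of these shifts was not tested. Counts per HSC library were as low as 16 for Nle1 and 29 for Rrs1.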

Other observations

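Long RNAs that host small nucleolar RNAs were counted as a further group of the ribosome biogenesis program. Snhg4, a symbol given to more than 1 gene in the tables, was left out. In MPPs 7 of the 8 tested were above 0 (median log2 fold change 0.26), with Snhg5 highest at 0.46 and Snhg17 the exception at -0.26. In HSCs 3 of 8 were above 0 (median -0.037). Among all genes tested, 52% were above 0 in MPPs and 47.7% in HSCs. None passed the false discovery rate in edgeR, and 0 were at an unadjusted p under 0.05 in either cell type. DESeq2 and limma voom counts were not made for this list.

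The promoter windows of the 42 genes were also searched, on both strands, for other common motifs. The GC box GGGCGG was in 68.2% of their windows (46.2% of protein-coding windows), the ETS core CCGGAAG in 22.7% (11.6%), CCAAT in 27.3% (38.2%) and TATAAA in 6.8% (12.6%). The GC box moves with the G and C content given above, and its part in these shares was not tested.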
